A study of Homo sapiens with 6 samples.

Results

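The transcripts of 7 matrix metalloproteinases (MMP1, MMP7, MMP9, MMP10, MMP12, MMP14 and MMP19) and 3 tissue inhibitors of metalloproteinases (TIMP1, TIMP2 and TIMP3) were followed in human macrophage-like cells after silencing of a circular RNA. They were taken by symbol from the 19976 genes of the deposited table, where each of the 10 had 1 row, and all 10 passed the filter on low counts. The cells were THP-1, a monocytic leukaemia line, turned into macrophages with 50 ng/ml of the phorbol ester PMA for 48 h and, before RNA was taken, given 200 ng/ml of the bacterial product LPS for 3 h. In 3 libraries the cells had been transfected for 48 h with 200 nM siRNA against hsa_circ_0004287 (circ siRNA), and in 3 libraries with 200 nM of a negative control siRNA (control siRNA). All 6 libraries thus share PMA, lipofection with Lipofectamine RNAiMAX and LPS, and no library without LPS or without siRNA was compared. Whether the 3 libraries of a group stem from separate cultures is not in the labels. The p-values therefore reflect library-to-library spread alone, part or all of which may be technical.

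MMPs are zinc-dependent endopeptidases that cut proteins of the extracellular matrix and shed or process cytokines, chemokines and receptors. Most are secreted as inactive proenzymes and become active when a propeptide is removed. TIMPs block the active site, so the amount of active protease depends on the balance of enzymes, activators and inhibitors. Macrophages are a main source of several MMPs in inflamed tissue, with MMP12 and MMP9 as the best known. The values here are transcript levels, and neither protein amount nor enzyme activity was measured.

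Total counts ran from 14793902 to 16736972 per library, so that 3 counts correspond to 0.179 to 0.203 CPM (counts scaled to a common library total). Macrophage markers summed to 2957 to 4369 CPM with circ siRNA and 3636 to 4472 CPM with control siRNA, and 10 of the 12 had 70 or more counts in every library. LYZ was the lowest of these 10, at 70 to 103 counts per library (mean 4.96 CPM). The other 2 were near 0: CD68 had 2, 4 and 5 counts in circ libraries 1 to 3, against 1, 2 and 5 in control libraries 1 to 3, and MRC1 had 4, 4 and 2 counts in circ libraries, against 5, 2 and 6 in control libraries. With circ siRNA, markers of other cell types summed to 25.8 to 29.3 CPM for fibroblasts, 0.299 to 0.946 for epithelium, 2.95 to 3.79 for endothelium, 3.58 to 4.18 for T and NK cells and 1.91 to 3.01 for B cells. With control siRNA these sums were 25.1 to 31.4, 0.241 to 0.756, 2.14 to 3.38, 3.13 to 6.26 and 3.09 to 3.32 CPM in the same order of cell types. EPCAM and KRT5 (epithelium), EMCN (endothelium), CD3G, CD2 and TRAT1 (T cells) and CEACAM8, CAMP and CXCR1 (neutrophils) had no count in any library. The first principal component, with 53.4% of the variance, put circ library 3 (-38.4) and control library 1 (-23.2) on one side of circ libraries 1 and 2 (-1.51 and 11.5) and control libraries 2 and 3 (30.4 and 21.3). Calls that differed without circ library 3 and control library 1 are therefore given as well. The table holds no row for the circular RNA, so the knockdown itself was not analysed here.

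The catalytic site ties the 7 MMPs together. Each carries the metzincin motif in which 3 histidines hold the catalytic zinc ion, and the 33 bases that encode it are shown here because they mark the shared enzyme and show how far the members differ as templates for read assignment. They were read from GENCODE 29 transcripts (GRCh38), and the capitals mark the codons of the 3 histidines.
MMP1 (chr11:102795549-102795581, minus strand): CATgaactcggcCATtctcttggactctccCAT
MMP7 (chr11:102523343-102523375, minus strand): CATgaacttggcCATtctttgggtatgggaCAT
MMP9 (chr20:46012453-46012485, plus strand): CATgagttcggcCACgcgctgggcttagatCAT
MMP10 (chr11:102776718-102776750, minus strand): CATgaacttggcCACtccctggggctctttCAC
MMP12 (chr11:102868011-102868043, minus strand): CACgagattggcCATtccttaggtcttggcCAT
MMP14 (chr14:22843283-22843315, plus strand): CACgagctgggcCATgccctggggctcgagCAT
MMP19 (chr12:55839596-55839628, minus strand): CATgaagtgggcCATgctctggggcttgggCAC
The window lay in exon 5 of the transcript in 6 of the genes and in exon 8 in MMP9. Any 2 of these windows shared between 20 (MMP9 and MMP12) and 26 (MMP14 and MMP19) of 33 bases. The coding sequence of MMP7 had 801 bases and those of the others 1407 to 2121, as MMP7 is the small member without the C-terminal haemopexin domain. Between paralogs, the longest run of bases that a transcript of the 10 genes shared was 96 bases, for MMP10 with MMP3, so some reads of these genes could be counted for either. Longer shared runs were found with genes that overlap one of the 10 on the genome, and these are named with it below. MMP12, TIMP1 and TIMP3 shared no run of 25 bases or more with a transcript of another gene.

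Per gene length, MMP9 was the most abundant of the 10 genes and TIMP2 the least. On the FPKM scale of the deposited table (fragments scaled by gene length and library total), mean levels over the 6 libraries were 2647 for MMP9, 1569 for TIMP1, 1325 for MMP14, 716 for MMP1, 142 for MMP10, 105 for MMP12, 95.9 for TIMP3, 54.3 for MMP19, 34.3 for MMP7 and 8.53 for TIMP2. The libraries of neighbours in this order overlapped, except between MMP14 and MMP1, between MMP1 and MMP10, and between MMP7 and TIMP2. TIMP1 and MMP14 cannot be ordered, since TIMP1 was above MMP14 in 3 of 6 libraries, while MMP9 was above TIMP1 in 6 of 6. Together the 10 genes took 1.84%, 1.84% and 1.31% of all counts in circ libraries 1 to 3, and 1.71%, 1.71% and 1.81% in control libraries 1 to 3.

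**Figure D1:**
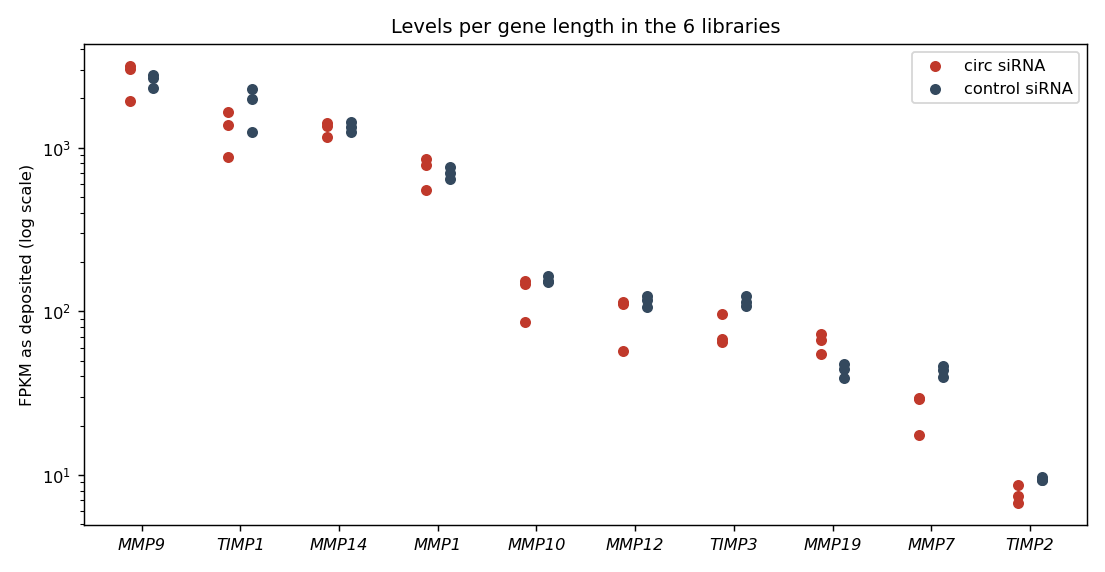
Deposited FPKM values (log axis) of the 10 genes in each of 3 circ siRNA and 3 control siRNA libraries, ordered by their mean over the 6 libraries. MMP9, TIMP1, MMP14 and MMP1 averaged 716 FPKM or more, and the next gene, MMP10, 142 FPKM.

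None of the 10 genes passed the threshold in the fit across all genes, but 4 had groups that did not overlap. In edgeR's quasi-likelihood test at an adjusted p under 0.05, 0 of 10 were called higher and 0 lower, against 0% and 0.00802% of the 12469 genes tested. The groups did not overlap for MMP19, higher in all 3 circ libraries, and for MMP7, TIMP2 and TIMP3, lower in all 3, which is 1 and 3 of 10 genes against 6.64% and 5.87% of all genes tested. The same 4 genes had an unadjusted edgeR p under 0.05, which 3.77% of all genes reached on the higher side and 2.68% on the lower side. These genes were picked with results of these data known, so the shares describe them and are no test of the family. DESeq2's Wald test called 1 of the 10 lower (TIMP3; 0.176% of all genes were called lower) and limma-voom called 0. The median log2 fold change of the 10 genes was -0.30, with 3 positive and 7 negative values, and that of all genes tested was -0.00695. In bulk RNA, fewer cells that express a gene and less of its RNA per cell cannot be told apart.

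**Figure D2:**
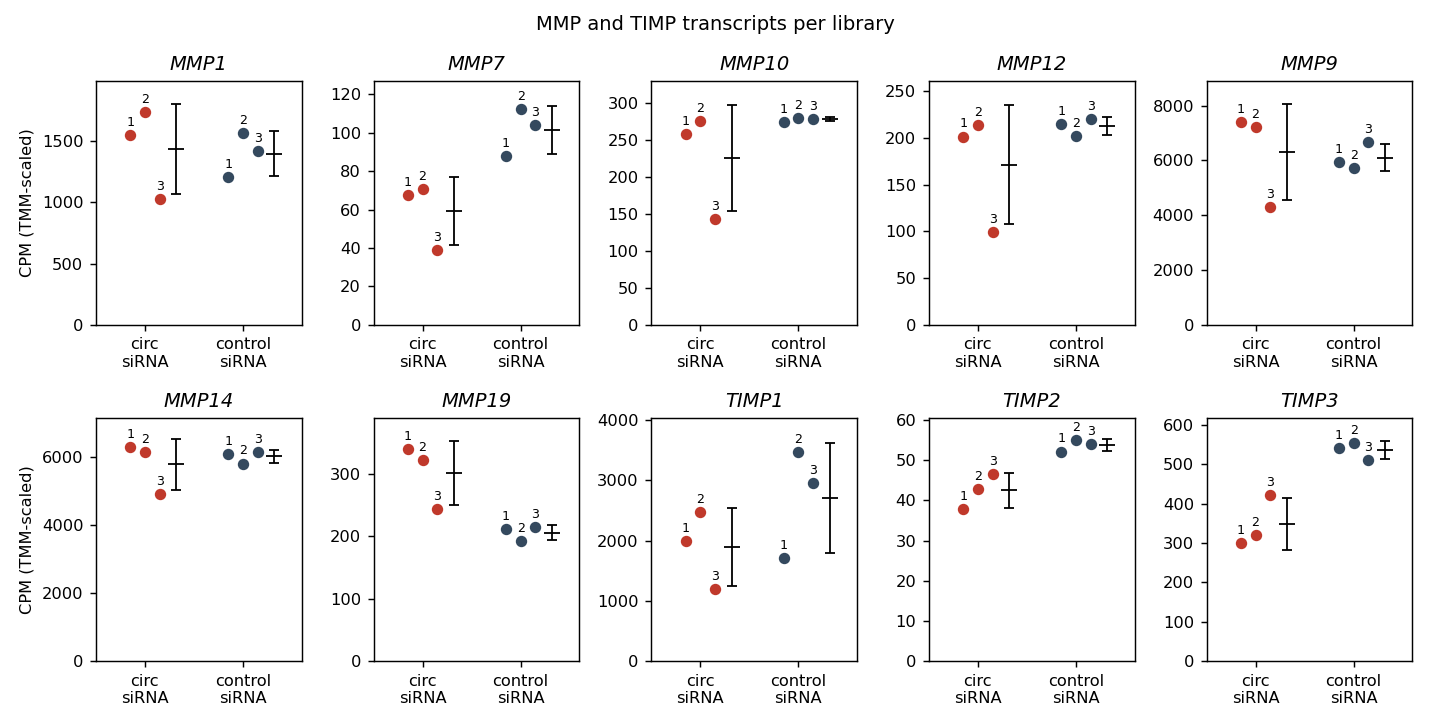
CPM on TMM-scaled totals for each gene and library (points, numbered by replicate), with the mean and SD of 3 libraries drawn beside them. The circ siRNA and control siRNA points are separate for MMP7, MMP19, TIMP2 and TIMP3, and circ library 3 is the lowest of the 6 for MMP1, MMP7, MMP9, MMP10, MMP12, MMP14 and TIMP1.

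Among the inhibitors, TIMP3 showed the difference with the smallest p of the 10 genes. TIMP3 (chromosome 22, 32801701 to 32863043, plus strand, GRCh38) encodes the TIMP that binds to the extracellular matrix and also inhibits ADAM17, the sheddase of TNF, and several ADAMTS proteases. Its level was 299, 319.9 and 423 CPM in circ libraries 1 to 3, against 541, 554 and 510.4 CPM in control libraries 1 to 3. The highest circ library, library 3, stayed below the lowest control library. The mean was 347 ± 66.1 CPM with circ siRNA and 535 ± 22.5 CPM with control siRNA (SD, n = 3 each), a log2 fold change of -0.62 (SE 0.15, 95% interval -0.98 to -0.27; edgeR adjusted p = 0.443, unadjusted p = 0.00336). DESeq2 called the gene (adjusted p = 0.0465). The gene lies within SYN3 on the opposite strand and shares no exon bases with it, and SYN3 had 6 to 9 counts in every library.

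TIMP2 was the least abundant of the 3 inhibitors. TIMP2 (chromosome 17, 78852977 to 78925387, minus strand) inhibits MMPs and, with MMP14, forms the complex on the cell surface that activates the MMP2 proenzyme. It had 37.9, 42.8 and 46.6 CPM in circ libraries 1 to 3, against 52.1, 55.0 and 54.1 CPM in control libraries 1 to 3, and again no circ library reached a control library. The difference on the log2 scale was -0.34 (SE 0.12, 95% interval -0.62 to -0.06; edgeR adjusted p = 0.660, DESeq2 adjusted p = 0.554). Exons of the antisense gene AC022966.1 cover 6.52% of the exon bases of TIMP2, and the use of strand in counting is not given in the sources used here, so reads there cannot be told apart. Exons of CEP295NL, on the same strand, cover 3.52%, and CEP295NL had 1 to 16 counts per library.

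TIMP1 varied widely within both groups. TIMP1 (chromosome X, 47582408 to 47586789, plus strand), the main soluble inhibitor and a partner of the MMP9 proenzyme, had 1994, 2470.0 and 1196 CPM in circ libraries 1 to 3, against 1703, 3465 and 2949 CPM in control libraries 1 to 3. The lowest values were those of circ library 3 and control library 1, the libraries that the first component set apart, and the groups overlapped. The difference on the log2 scale was -0.52 (SE 0.32, 95% interval -1.25 to 0.21; edgeR adjusted p = 0.864). It was -0.28 without circ library 3, -0.30 without control library 2, and -0.76 without circ library 2 or control library 1. With offsets for each library's trend with gene length and GC content it was -0.38. The listed length of TIMP1, 1446 bases, was the shortest of the 10 genes. Across genes, the deviation of a library from the mean of all 6 went with gene length. Spearman's rho was 0.39 in circ library 3 and 0.47 in control library 1, against -0.44 and -0.40 in control libraries 2 and 3. In circ libraries 1 and 2 rho was 0.05 and -0.29. The part of this trend in the TIMP1 values was not tested further.

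Of the proteases, MMP7 had the largest fold change in size. MMP7 (matrilysin; chromosome 11, 102520508 to 102530750, minus strand) cuts matrix proteins and releases membrane-bound ligands, among them Fas ligand and pro-TNF. Its level was 67.7, 70.7 and 38.8 CPM in circ libraries 1 to 3, against 87.6, 112 and 104 CPM in control libraries 1 to 3. The highest circ library, library 2, was below the lowest control library, library 1, and circ library 3 was lowest. The mean was 59.1 ± 17.6 CPM with circ siRNA and 101 ± 12.5 CPM with control siRNA (SD, n = 3 each), and the log2 fold change -0.78 (SE 0.23, 95% interval -1.30 to -0.26; edgeR adjusted p = 0.550, DESeq2 adjusted p = 0.153).

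MMP19 was the one member with the opposite sign and separate groups. MMP19 (chromosome 12, 55835433 to 55842966, minus strand) is a protease of basement membrane components that is expressed in myeloid cells. It had 339, 322 and 244 CPM in circ libraries 1 to 3, against 211, 192 and 214 CPM in control libraries 1 to 3. The lowest circ library, library 3, was above the highest control library. The mean was 302 ± 50.9 CPM with circ siRNA and 206 ± 11.8 CPM with control siRNA (SD, n = 3 each), a log2 fold change of 0.55 (SE 0.15, 95% interval 0.21 to 0.89; edgeR adjusted p = 0.499, DESeq2 adjusted p = 0.147). Exons of the pseudogene TMEM198B on the opposite strand cover 17.4% of the exon bases of MMP19. As for TIMP2, reads of MMP19 and TMEM198B cannot be told apart over that stretch.

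The 2 most abundant proteases gave log2 fold changes near 0. MMP9 (gelatinase B; chromosome 20, 46008908 to 46016561, plus strand), which degrades type IV collagen and denatured collagen, had 7391, 7237 and 4295 CPM in circ libraries 1 to 3, against 5929, 5712 and 6669 CPM in control libraries 1 to 3. Circ libraries 1 and 2 were above all control libraries and circ library 3 was below them, and the log2 fold change was 0.05 (95% interval -0.45 to 0.54; edgeR adjusted p = 0.968). Exons of SLC12A5-AS1, on the opposite strand, cover 18.4% of the exon bases of MMP9, and the same limit of unknown strand holds. MMP14 (chromosome 14, 22836560 to 22849027, plus strand), the membrane-anchored collagenase that activates MMP2, had 6295, 6172 and 4927 CPM in circ libraries 1 to 3, against 6100.3, 5821 and 6168 CPM in control libraries 1 to 3. Its log2 fold change was -0.06 (95% interval -0.38 to 0.27; edgeR adjusted p = 0.939). For both genes, differences within these intervals remain compatible with the data.

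MMP1, MMP10 and MMP12 all had their lowest value in circ library 3. MMP1 (interstitial collagenase; chromosome 11, 102789919 to 102798160, minus strand) had 1551, 1738 and 1029 CPM in circ libraries 1 to 3, against 1206, 1569 and 1421 CPM in control libraries 1 to 3, with overlapping groups. Its log2 fold change was close to 0, at 0.04 (edgeR adjusted p = 0.973, 95% interval -0.43 to 0.52). Exons of the pseudogene WTAPP1, on the opposite strand, cover 7.61% of the exon bases of MMP1, with the same limit of unknown strand. MMP10 (stromelysin 2, which acts on proteoglycans, fibronectin and MMP proenzymes; chromosome 11, 102770502 to 102780628, minus strand) had 258, 275 and 143 CPM in circ libraries 1 to 3, against 274, 279.9 and 279 CPM in control libraries 1 to 3. MMP12 (macrophage elastase; chromosome 11, 102862736 to 102874982, minus strand) had 202, 214 and 98.9 CPM in circ libraries 1 to 3, against 215, 202 and 221 CPM in control libraries 1 to 3. For MMP10 and MMP12 the log2 fold changes of -0.30 and -0.31 (edgeR adjusted p = 0.882 and 0.885) rested on circ library 3. Without it they were -0.06 and -0.03.

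**Figure D3:**
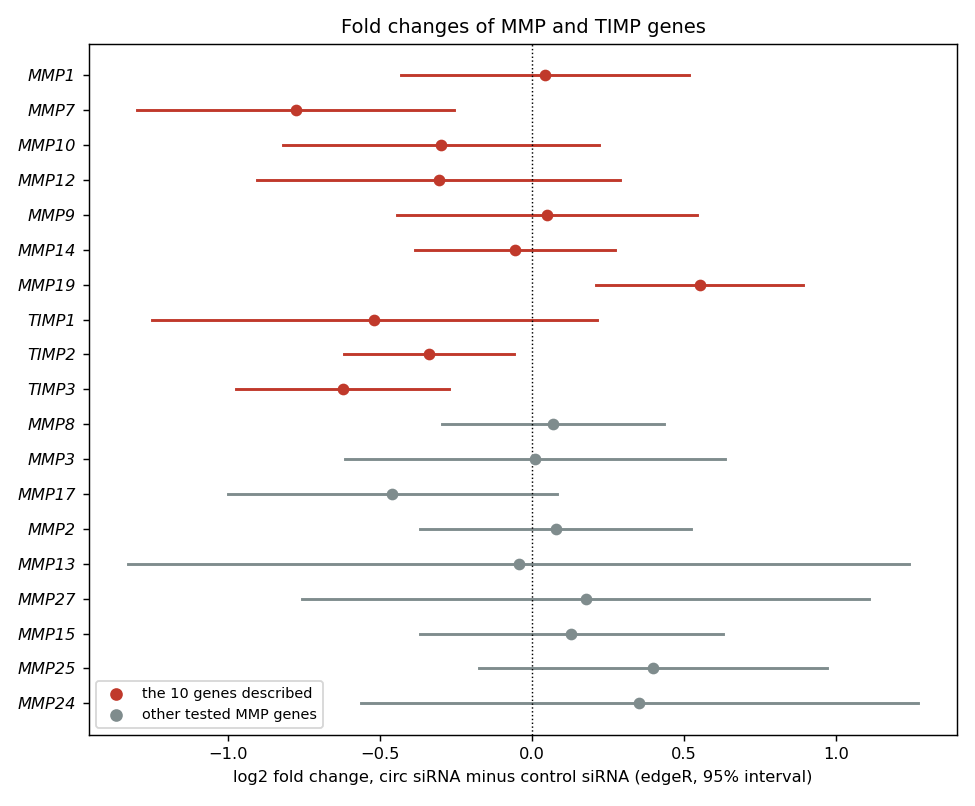
Log2 fold changes with 95% intervals from the edgeR fit across all genes, circ siRNA minus control siRNA, for the 10 genes (red) and the 9 other MMP genes that passed the filter (grey). The intervals of MMP7, TIMP2 and TIMP3 lie below 0 and that of MMP19 above 0, before adjustment for the number of genes tested.

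Without circ library 3 and control library 1, edgeR called 5 of the 10 genes. MMP19 was called higher, with a log2 fold change of 0.71 (edgeR adjusted p = 0.000198), in a fit that called 7.38% of all genes higher. TIMP3 (-0.78, edgeR adjusted p = 8.27e-05), MMP7 (-0.64, 0.000417), TIMP1 (-0.52, 0.00686) and TIMP2 (-0.43, 0.0104) were called lower, in a fit that called 7.43% of all genes lower. This fit has 2 libraries per group and leaves out those that add most spread, so its calls are no measure of a larger effect. The libraries left also lay apart by group on the first component, at -1.51 and 11.5 (circ) against 30.4 and 21.3 (control). Their trends with gene length were apart as well, at Spearman's rho of 0.05 and -0.29 (circ) against -0.44 and -0.40 (control). The part of these calls that goes with that trend was not tested. For MMP7, MMP19, TIMP2 and TIMP3 the sign was the same in all 15 alternative settings run. The same held for MMP10, MMP12 and TIMP1, so an unchanged sign was not particular to genes with separate groups. When any 1 library was left out, the lowest edgeR adjusted p of the 10 genes was 0.172 (TIMP3, without circ library 3). Over these leave-outs the log2 fold changes ran from -0.79 to -0.53 for TIMP3, from -0.93 to -0.55 for MMP7, from -0.41 to -0.27 for TIMP2 and from 0.46 to 0.68 for MMP19.

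**Figure D4:**
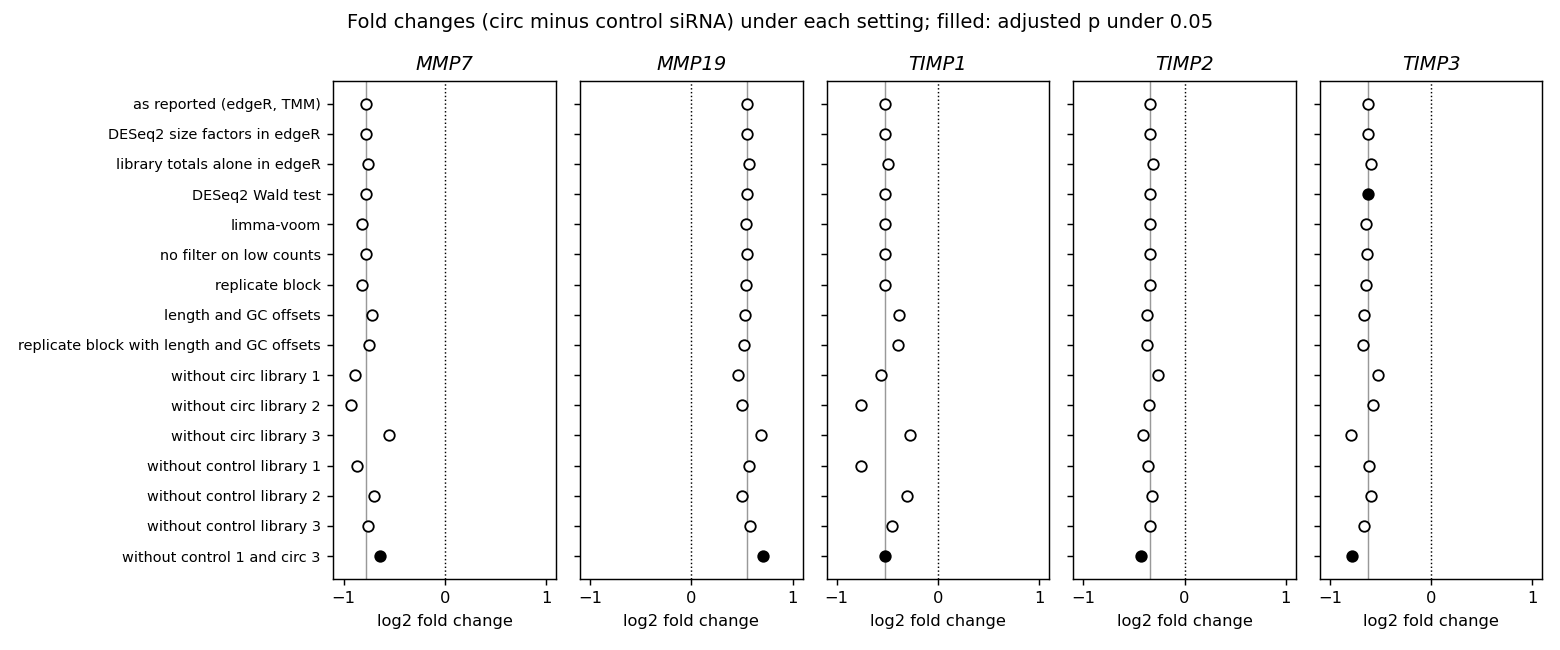
Log2 fold changes (x axis, circ siRNA minus control siRNA) of MMP7, MMP19, TIMP1, TIMP2 and TIMP3 as reported and under 15 alternative settings (rows). Filled points passed an adjusted p of 0.05, which TIMP3 did with DESeq2 and all 5 genes did without control library 1 and circ library 3.

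MMP7, MMP10, MMP1 and MMP12 lie in one cluster on chromosome 11 together with MMP3, MMP8, MMP13, MMP20 and MMP27, and relative to MMP1, MMP3, MMP8, MMP10 and MMP12, the 5 abundant neighbours, MMP7 was lower in each circ library than in each control library. Such ratios within a library need no scaling between libraries, and they were chosen after the values were seen, so they are given with no test. They do not remove a library's trend with gene length. MMP8 (listed length 3437 bases) to MMP7 (2320 bases) was highest within each group in circ library 3 (27.1) and control library 1 (15.7). The part of that trend in the ratios was not tested. The FPKM ratio of MMP1 to MMP7 was 27.0, 28.9 and 31.2 in circ libraries 1 to 3, against 16.2, 16.5 and 16.1 in control libraries 1 to 3. Both genes were lowest in circ library 3, and the ratio there lay near that of the other circ libraries. The ratio of MMP10 to MMP7 was 5.03, 5.13 and 4.86 in circ libraries 1 to 3, against 4.13, 3.29 and 3.53 in control libraries 1 to 3. For MMP3, MMP8 and MMP12 the ratio to MMP7 averaged 6.52 ± 0.74, 21.8 ± 4.61 and 3.63 ± 0.34 with circ siRNA, against 3.89 ± 0.28, 11.9 ± 3.32 and 2.70 ± 0.42 with control siRNA (SD, n = 3 each). All 5 ratios had groups that did not overlap. They share MMP7, whose own groups did not overlap, so they are not 5 separate results. Nor was this particular to the cluster, as the ratio of MMP9, on chromosome 20, to MMP7 also had separate groups. It was 108, 102 and 110 in circ libraries 1 to 3, against 67.2, 50.6 and 63.7 in control libraries 1 to 3. Of the 3 scarce neighbours, MMP27 also had separate groups, with ratios of 0.0518, 0.0365 and 0.0286 in circ libraries 1 to 3, against 0.0259, 0.0152 and 0.0231 in control libraries 1 to 3. The groups overlapped for MMP13, at 0.0496, 0.0427 and 0.0122 in circ libraries 1 to 3, against 0.0343, 0.0163 and 0.0214 in control libraries 1 to 3, and for MMP20, which had 10 counts in all.

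**Figure D5:**
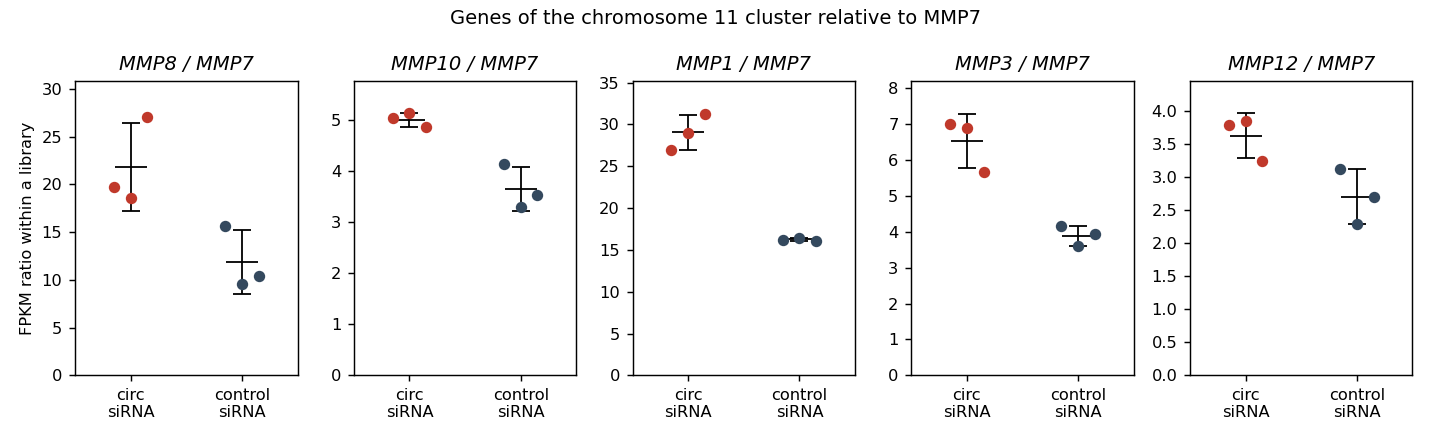
FPKM of 5 genes of the chromosome 11 cluster divided by that of MMP7 in the same library (points), with the mean and SD of 3 libraries. For each of the 5 genes the circ siRNA libraries lie above the control siRNA libraries, with the ratio of MMP1 to MMP7 at 27.0 to 31.2 in circ siRNA libraries and 16.1 to 16.5 in control siRNA libraries.

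The promoters of MMP7 and TIMP3 are shown because these genes had the lowest p among the proteases and inhibitors that were lower with circ siRNA. That of MMP10 is shown because, among the 10 genes, it is the cluster neighbour of MMP7 with a matched sequence. Promoters of the other cluster genes were not looked up. They are the 250 bases before the transcription start from RefSeq (GRCh38.p14), where 5 of the 10 genes were matched (MMP7, MMP10, MMP14, TIMP1 and TIMP3). Capitals mark, on either strand, the AP-1 motif TGANTCA and the TATA box TATAAA in the MMP genes and the GC box GGGCGG in TIMP3.
MMP7 (chr11:102530748-102530997, minus strand): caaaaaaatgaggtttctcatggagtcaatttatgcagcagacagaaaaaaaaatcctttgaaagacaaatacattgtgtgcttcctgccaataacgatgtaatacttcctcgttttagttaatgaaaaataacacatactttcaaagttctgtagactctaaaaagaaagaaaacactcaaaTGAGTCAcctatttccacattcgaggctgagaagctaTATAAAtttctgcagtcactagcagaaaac
MMP10 (chr11:102780629-102780878, minus strand): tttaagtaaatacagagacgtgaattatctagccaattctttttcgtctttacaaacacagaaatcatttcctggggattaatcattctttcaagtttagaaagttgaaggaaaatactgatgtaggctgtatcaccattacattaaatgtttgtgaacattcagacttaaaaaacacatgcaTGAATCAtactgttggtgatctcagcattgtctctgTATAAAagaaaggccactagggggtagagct
TIMP3 (chr22:32801455-32801704, plus strand): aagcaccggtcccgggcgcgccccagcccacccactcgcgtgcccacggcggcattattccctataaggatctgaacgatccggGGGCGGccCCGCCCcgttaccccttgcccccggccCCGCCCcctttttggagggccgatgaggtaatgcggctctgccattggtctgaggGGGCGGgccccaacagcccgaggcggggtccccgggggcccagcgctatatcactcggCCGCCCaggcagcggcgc
AP-1, a dimer of FOS and JUN family proteins, is a classical regulator of MMP genes. MMP7 and MMP10 each had 1 match to the AP-1 motif, starting at base -67 in both, and 1 to the TATA box, at -30 in MMP7 and -31 in MMP10. Of all 35116 promoters read, 6.57% hold the AP-1 motif and 10.7% the TATA box in the same window. TIMP3 had 5 matches to the GC box, TIMP1 had 2 and MMP14 had 1, and 42.6% of all promoters hold it. The GC content of the window was 33.6% for MMP7, 34.4% for MMP10 and 72.4% for TIMP3, with a median of 58% over all promoters. A match is a description of the letters and not a binding site shown in these cells.

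The summed levels of proteases and inhibitors did not separate the groups. The 7 MMPs summed to 5717, 5584 and 3869 FPKM in circ libraries 1 to 3, against 5121, 4671 and 5180.4 FPKM in control libraries 1 to 3. The 3 TIMPs summed to 1449, 1738 and 977 FPKM in circ libraries 1 to 3, against 1371, 2406 and 2099 FPKM in control libraries 1 to 3, with TIMP1 as the larger part in every library. The ratio of the sums was 3.94, 3.21 and 3.96 with circ siRNA, against 3.74, 1.94 and 2.47 with control siRNA. Control library 1 thus lay within the range of the circ libraries. The ratio of MMP19 to TIMP3 did not overlap between groups, at 1.12, 0.991 and 0.568 with circ siRNA, against 0.384, 0.342 and 0.413 with control siRNA. MMP19 was higher and TIMP3 lower in every circ library than in every control library, so this ratio had to separate. It is therefore no result beyond those of the 2 genes. The ratios of MMP9 to TIMP3, MMP14 to TIMP3 and MMP14 to TIMP2 overlapped between groups. The ratio of MMP9 to TIMP1 overlapped between groups, at 2.29, 1.81 and 2.22 with circ siRNA, against 2.15, 1.02 and 1.40 with control siRNA.

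The other 17 genes of both families gave 9 that passed the filter, of which edgeR called 0, with 0 at an unadjusted p under 0.05 and 0 called by DESeq2 or limma-voom. Their log2 fold changes had 7 positive and 2 negative values with a median of 0.08. MMP8, the neutrophil collagenase, was the most abundant of them, with 1980.4, 1949 and 1558 CPM in circ libraries 1 to 3, against 2038, 1592 and 1601 CPM in control libraries 1 to 3 (log2 fold change 0.07, 95% interval -0.30 to 0.43). MMP3 (stromelysin 1) had 379, 389.5 and 176 CPM in circ libraries 1 to 3, against 290.3, 322 and 327 CPM in control libraries 1 to 3, again lowest in circ library 3. Without circ library 3 and control library 1, edgeR called MMP8 (log2 fold change 0.30, adjusted p = 0.0147) and MMP3 (0.25, 0.0318) higher and MMP17 (-0.45, 0.0293) lower, 2 and 1 of 9 genes in the fit that called 7.38% of all genes higher and 7.43% lower. MMP17, a membrane-anchored MMP, averaged 23.7 ± 6.10 CPM with circ siRNA and 32.7 ± 7.67 CPM with control siRNA, and MMP2 (gelatinase A) 31.9 ± 8.63 CPM with circ siRNA and 30.2 ± 2.30 CPM with control siRNA (SD, n = 3 each). MMP13, MMP15, MMP24, MMP25 and MMP27 averaged 1.59 to 3.92 CPM per group, and the groups did not overlap for MMP25, at 2.49 ± 0.49 CPM with circ siRNA and 1.89 ± 0.12 CPM with control siRNA. MMP25 had an edgeR unadjusted p of 0.15 and was 1 of 9 genes separate on the higher side, against 6.64% of all genes. MMP16, MMP20, MMP21 and MMP23B had 10 to 22 counts over all 6 libraries, TIMP4 had 9 and MMP11 had 1. MMP26 and MMP28 had 0 counts, which allows up to 0.179 to 0.203 CPM per library.

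Genes that act with MMPs gave no edgeR call either, and the medians of the 5 lists ran from -0.10 to 0.24 on the log2 scale. These lists were chosen with earlier results of these data known, so the counts and shares below describe them and test no list. Of the 14 AP-1 and ETS factors tested, 11 had positive values (median log2 fold change 0.24), and an unadjusted p under 0.05 was reached by 6 on the higher side and 0 on the lower side, against 3.77% and 2.68% of all genes. edgeR called 0 of them and DESeq2 called 2 higher, FOSB and ETS2, against 0.481% of all genes. FOSB, an AP-1 subunit, had 9.95, 7.43 and 8.91 CPM in circ libraries 1 to 3, against 4.36, 3.81 and 4.41 CPM in control libraries 1 to 3 (log2 difference 1.06; adjusted p = 0.265 in edgeR and 0.00252 in DESeq2). ETS2, an ETS factor, averaged 180 ± 7.55 CPM with circ siRNA and 133 ± 3.06 CPM with control siRNA (log2 difference 0.44; adjusted p = 0.443 in edgeR and 0.0419 in DESeq2; SD, n = 3 each). FOS, another AP-1 subunit, had 40.3, 39.3 and 37.9 CPM in circ libraries 1 to 3, against 30.2, 29.2 and 27.5 CPM in control libraries 1 to 3 (log2 difference 0.43; adjusted p = 0.499 in edgeR). Without circ library 3 and control library 1, edgeR called FOSB, ETS2 and FOS higher (adjusted p = 0.00548, 0.00277 and 0.00602), as it did 7.38% of all genes. The same share of genes called higher, and 7.43% called lower, stands behind each value given below without these 2 libraries.

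Of 17 ADAM and ADAMTS genes tested, relatives of the MMPs, 9 had positive and 8 negative values (median log2 fold change 0.00784), and 0 were called by edgeR or DESeq2. An unadjusted p under 0.05 with a higher value was found for 2 of the 17, against 3.77% of all genes. ADAMDEC1, a macrophage and dendritic cell protease, had 388, 375 and 305 CPM in circ libraries 1 to 3, against 276, 235 and 247 CPM in control libraries 1 to 3 (log2 difference 0.49; adjusted p = 0.514 in edgeR, and 0.000180 without circ library 3 and control library 1). ADAM15 and ADAMTS4 had log2 fold changes of 0.27 and 0.52 (edgeR adjusted p = 0.766 and 0.864). Among 19 activators, inhibitors and partners, 4 values were positive and 15 negative (median -0.10), with 0 called by edgeR or DESeq2. An unadjusted p under 0.05 was found for 1 of the 19, with a higher value, against 3.77% of all genes. This was LRP1, the receptor that clears MMP and TIMP complexes, with 93.5, 86.1 and 161 CPM in circ libraries 1 to 3, against 80.7, 43.3 and 56.8 CPM in control libraries 1 to 3 (log2 difference 0.91; adjusted p = 0.599 in edgeR, and 0.000529 without circ library 3 and control library 1). LRP1 has a listed length of 20859 bases and was highest within each group in circ library 3 and control library 1. Its groups overlapped on unscaled library totals, and with length and GC offsets the log2 difference was 0.83. The part of the length trend in these values was not tested. TGFBI and SERPINB2, a matrix protein and a plasminogen activator inhibitor, had log2 fold changes of 0.25 and -0.50 (edgeR adjusted p = 0.777 and 0.864), and TGFBI was called higher without the same 2 libraries (edgeR adjusted p = 0.0340).

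Matrix substrates and other macrophage proteases gave 0 calls in edgeR and DESeq2. Of 14 substrates tested, 7 had positive and 7 negative values (median log2 fold change 0.00394), and 1 in each direction had an unadjusted p under 0.05, against 3.77% of all genes on the higher and 2.68% on the lower side. THBS1 (thrombospondin 1, a matrix glycoprotein) was the one with the higher value, at 65.2 ± 2.55 CPM with circ siRNA and 41.0 ± 12.8 CPM with control siRNA (log2 difference 0.67; adjusted p = 0.581 in edgeR, and 7.38e-05 without circ library 3 and control library 1). Its control libraries 1 to 3 had 55.8, 34.2 and 33.1 CPM. Leaving out circ library 3 and control library 1 thus removed the control value nearest the circ values. LAMB1, a laminin chain of basement membranes, was the one with the lower value, at 5.97 ± 0.68 CPM with circ siRNA and 7.98 ± 0.46 CPM with control siRNA (log2 difference -0.42; adjusted p = 0.718 in edgeR). COL6A2, a chain of type VI collagen, had a log2 difference of -0.32 (adjusted p = 0.804 in edgeR, and 0.00641 without those 2 libraries). Of 12 cathepsins and other proteases, 6 had positive and 6 negative values (median 0.03), and 1 had an unadjusted p under 0.05 with a higher value, against 3.77% of all genes. This was CTSK (cathepsin K, a collagen-degrading protease), which averaged 104 ± 22.6 CPM with circ siRNA and 76.6 ± 9.46 CPM with control siRNA (log2 difference 0.44; adjusted p = 0.724 in edgeR; SD, n = 3 each), and CTSB and LGMN, lysosomal proteases, had log2 differences of 0.22 and 0.28 (adjusted p = 0.871 and 0.874 in edgeR).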

How the data were processed

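Poly-A RNA was sequenced as paired ends, per the labels' protocols, and the submitters' processing notes name CASAVA, cutadapt, HISAT2 and the build GRCh38. Tool versions, the counting program, its strand setting and the annotation were not given in the sources used here. Deposited by the authors were a raw read count per gene and library and an FPKM value that equals the count scaled by the listed gene length and the column total in all 119856 values (relative tolerance 1e-09). Counts were tested with edgeR 4.0.16 (R 4.3.3): quasi-likelihood F test, two-sided, TMM scaling, filterByExpr with a minimum count of 10, the group as the only term, and Benjamini-Hochberg adjustment over 12469 genes. CPM are relative to TMM-scaled totals, except marker sums, which use the column totals. Standard errors and 95% intervals come from the F statistic. The deposited gene length and, for 19885 genes, GC content from GENCODE 29 served for offsets (natural splines, 4 degrees of freedom). DESeq2 1.42.0 and limma-voom (3.58.1) were alternatives, as were other scalings, no filter, a replicate block and left-out libraries. Genes and lists were chosen with earlier results of these data known. Beside the 10 genes, text names followed a rule: other MMPs and TIMP4 with 10 or more counts over 6 libraries, the 3 smallest p per list, and the 3 genes closest to MMP9 and to TIMP1 over the libraries. TIMP4, MMP11, MMP26 and MMP28, below that count, were named after their values were seen, as were the ratios. The test was also run on simulated counts, drawn independently for each gene and library. They held no trend with gene length, so the run does not check the test under such trends. No pair of libraries in a group agreed within sampling noise (chi-square per gene at least 5.98).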

Additional observations from a re-analysis of the deposited data

How the results depend on the processing

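For these shifts the cause was not tested. Genes called higher numbered 0 as reported, 60 with DESeq2, 6 with length and GC offsets, 919 after circ library 3 and control library 1 were both left out, and 3 at an adjusted p under 0.1. On the lower side edgeR called 1 gene as reported, DESeq2 22, the offsets 6, the threshold of 0.1 gave 4, no filter gave 2, and leaving out those 2 libraries gave 926. It was 0 under limma-voom, under unscaled library totals and in every fit lacking 1 library. The replicate block gave 0 lower genes, also when joined to the offsets. Of the 10 genes, those called higher numbered 0 as reported and 1 without the 2 libraries, and those called lower 0 as reported, 1 with DESeq2 and 4 without the 2 libraries. Of 150 fold changes of the 10 genes under alternatives, 137 had the reported sign and call, 6 became calls and 7 changed sign. MMP1 changed sign without circ library 1 (-0.0145), circ library 2 (-0.117) or control library 1 (-0.0517), with a range of -0.117 to 0.234 over single leave-outs. MMP9 did so without circ library 1 (-0.0808) or 2 (-0.0631), in a range of -0.0808 to 0.261. MMP14 did so without circ library 3 (0.0482; range -0.119 to 0.0482) and without that library and control library 1 (0.0606). Of 90 list medians, 85 moved by less than the spread between libraries. Same-numbered libraries' deviations from their group means correlated at -0.17, 0.46 and -0.37. With 3 libraries per group such values can neither show nor exclude a pairing by number.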

Other observations

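The genes whose levels followed the most abundant protease and inhibitor most closely over the 6 libraries were found by the root mean square difference of log2 CPM, each gene centred on its own mean, among 9464 genes with a mean of at least 5 CPM. For MMP9 these were DOK3 (0.0535), MGLL (0.0602) and TRMT12 (0.0607). MMP9 itself lay at 0.28, 0.24 and -0.51 in circ libraries 1 to 3 and at -0.04, -0.10 and 0.13 in control libraries 1 to 3, and DOK3 at 0.30, 0.28 and -0.55 in the circ libraries and at 0.04, -0.12 and 0.05 in the control libraries. For TIMP1 they were TMEM189 (0.0590), RCN3 (0.0648) and NT5C (0.0648). TIMP1 lay at -0.12, 0.19 and -0.85 in circ libraries 1 to 3 and at -0.35, 0.68 and 0.45 in control libraries 1 to 3, and RCN3 at -0.07, 0.21 and -0.76 in the circ libraries and at -0.34, 0.59 and 0.37 in the control libraries. Both patterns have circ library 3 as their lowest value.

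MMP8 was also listed among the neutrophil markers, where it made up 98.2% of the counts. The other 7 neutrophil markers summed to 32.2 to 41.1 CPM with circ siRNA and 28.6 to 30 CPM with control siRNA, mostly from CSF3R, and 3 of the 8 had no count in any library (CEACAM8, CAMP and CXCR1). FCGR3B, a marker of mature neutrophils, had 0 counts in 5 libraries and 2 in control library 2.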
